A study of Sus scrofa with 226 samples.

Results

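The genes described here are 7 genes of the glia of sensory ganglia: APOE, FABP7, BCAN, AQP4 and FBLN5, named for satellite glia, and S100B and MBP, named for Schwann cells. They were chosen by name, with earlier results of these data known, and their levels were read in single neurons. Of the 7 genes 6 had a row among the 30420 genes of the count table. S100B had no identifier paired with it, and so has no value here.

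The cells were cultured neurons of dorsal root ganglia, which hold the cell bodies of the body's sensory nerves, from 10 wild-type pigs. The animals were 11, 12, 14, 15, 17, 18 or 20 weeks old, and no agent or mutation is named in the labels. Neurons were kept for 1, 2 or 3 days in culture: 78 cells of 9 animals had 2 days, 24 cells of 3 animals had 3 days, and all the others, from 10 animals, had 1 day. Each was recorded with a patch pipette, taken up whole with a wider pipette and sequenced by itself with Smart-Seq2, a method that copies full-length cDNA and carries no molecular identifiers. Every library is labelled a neuron, and no library of isolated glia is among the samples, so the level of these genes in glia themselves is not known here. All cells of 1 animal are 1 replicate in the tests below.

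Satellite glia form a thin sheath around the cell body of each sensory neuron and buffer the potassium, glutamate and water around it. Schwann cells ensheath the axon, and the myelinating ones make the compact membrane that holds MBP, myelin basic protein. A neuron dissociated from a ganglion can carry parts of its sheath, and one library can then hold RNA of the neuron and of cells attached to it. Which of them a read came from cannot be told apart in these files.

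Cells held between 109726 and 5506278 counts (median 740524.5). A gene was called present in a cell at 20 CPM, where CPM is the count divided by the cell's total and scaled to the same sum in each cell. This was 2.2 counts in the shallowest library and 110.1 counts in the deepest. The neuron genes UCHL1 and STMN2 were at this level in all cells, and PRPH, peripherin, was in 96.9%. POU4F1, a transcription factor of sensory neurons, was at 20 CPM in none of the cells and RBFOX3 in 0.885%. The median number of genes with a read was 14065 at day 1, 13384.5 at day 2 and 10802 at day 3, and the mitochondrial share of counts was 4.76%, 3.58% and 2.70% on those days.

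APOE and FBLN5 were common in these neurons and the other measured members were rare. APOE, the apolipoprotein that carries lipid between glia and neurons, was at 20 CPM or more in 50% of cells. FBLN5, fibulin 5, an extracellular protein of elastic fibres, was in 73 cells, or 32.3%. FABP7, the fatty acid-binding protein of radial and satellite glia, was in 21 cells (9.29%). MBP was in 15 cells (6.64%). AQP4, the water channel of astrocytes, was in 9 cells (3.98%). BCAN, the matrix proteoglycan brevican, was in 4 cells (1.77%). Over the 14867 genes with a symbol the median share was 9.74%, and the share of those genes that lay lower was 74.2% for APOE, 66.2% for FBLN5, 49.3% for FABP7, 45.3% for MBP, 39.4% for AQP4 and 29.9% for BCAN. FABP7 was thus found about as often as the middle gene, and AQP4 and BCAN less often.

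The threshold set how common a member looked. At 5 CPM the shares were 76.1% for APOE, 50% for FBLN5, 20.4% for MBP, 19.03% for FABP7, 14.2% for BCAN and 10.2% for AQP4, so MBP and FABP7 traded places, as did BCAN and AQP4. The lowest level inside the 20 CPM threshold and the highest level outside it were 20.5 and 19.6 CPM for APOE, 21.9 and 15.7 CPM for FABP7, 22.99 and 17.1 CPM for BCAN, 23.4 and 19.2 CPM for AQP4, 20.1 and 19.3 CPM for FBLN5, and 20.1 and 16.1 CPM for MBP. With cells thinned to 100000 counts each, BCAN was at 20 CPM in 6.64% of cells, where 20 CPM is 2 counts.

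The animals differed widely in APOE. It was at 20 CPM or more in 23.1%, 64%, 45.5%, 25.7%, 48%, 45.2%, 40%, 100%, 73.5% and 68.8% of the cells of animals 1 to 10. Animal 8 gave 6 cells and animal 4 gave 35. The share of FBLN5 ran between 15.4% in animal 1 and 66.7% in animal 8. FABP7 was concentrated in animal 2, where 40% of 25 cells had it, and it was in 0 cells of animals 1, 3, 4, 8 and 9. For animal 9, 0 of 34 cells allows a share of up to 8.82%, and for animal 4, 0 of 35 cells allows up to 8.57%. Both limits are far under the share in animal 2, and all intervals and limits given here cover counting error only.

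**Figure D1:**
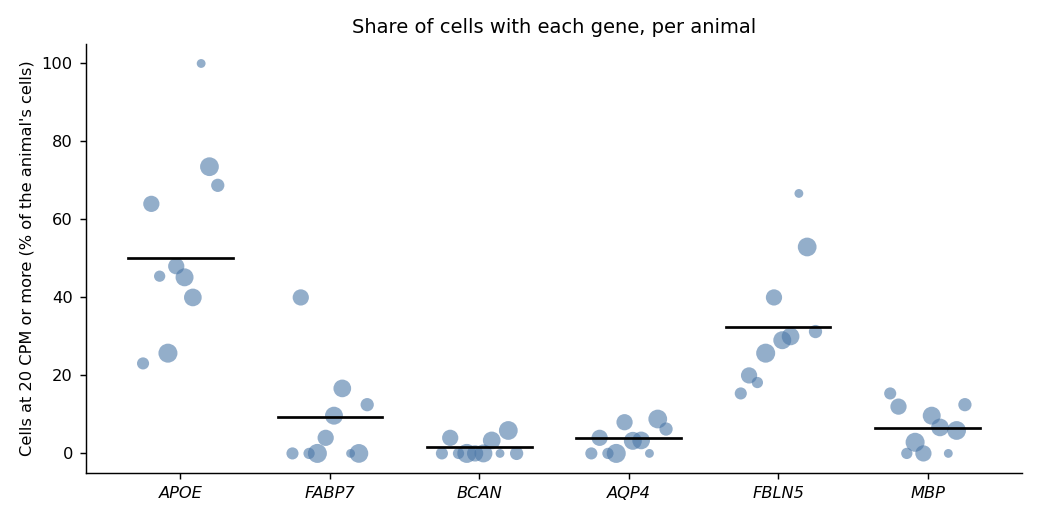
Share of cells (%) at 20 CPM or more of each measured gene in each of the 10 animals. Each point is 1 animal, numbered 1 to 10 from left to right within a gene, with a larger area for more cells, and the bar is the share over all cells. APOE runs between 23.1% and 100%, while FABP7 is at 40% in 1 animal and at 0 in 5.

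The level of APOE was low in most cells and very high in a few. Its median was 20.1 CPM, 21 cells had no read of it, and 40 cells were at 100 CPM or more. The 5 highest cells held 39.8% of all APOE summed as CPM, and the same share was 53.9% for FABP7 and 46.5% for FBLN5. The highest APOE level, 2854 CPM, was in a cell of animal 7 at day 2. That cell also had the highest FBLN5 level, 2823 CPM, and 0 CPM of FABP7, BCAN, AQP4 and MBP. It had reads for 3645 genes. The second highest, 2791 CPM, was in a cell of animal 5 at day 1, which also had 324.2 CPM of FABP7, 86.2 CPM of AQP4 and 131.3 CPM of FBLN5. In that second cell the other satellite glia genes (a list of 13, with 12 measured, SPARC, CDH19 and SLC1A3 among them) summed to 3177 CPM, the highest of all cells, and in the first they summed to 74.8 CPM. The 2 cells with the most APOE therefore differed in the rest of their glial genes.

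The highest level of FABP7 was 417.2 CPM in a cell of animal 2 at day 1. For BCAN it was 140.2 CPM in a cell of animal 7 at day 1, and for AQP4 it was 86.2 CPM in the APOE-rich cell of animal 5. For MBP it was 108.9 CPM in a cell of animal 2 at day 2. The median over all cells was 0 CPM for FABP7, BCAN, AQP4 and MBP and 4.96 CPM for FBLN5.

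**Figure D2:**
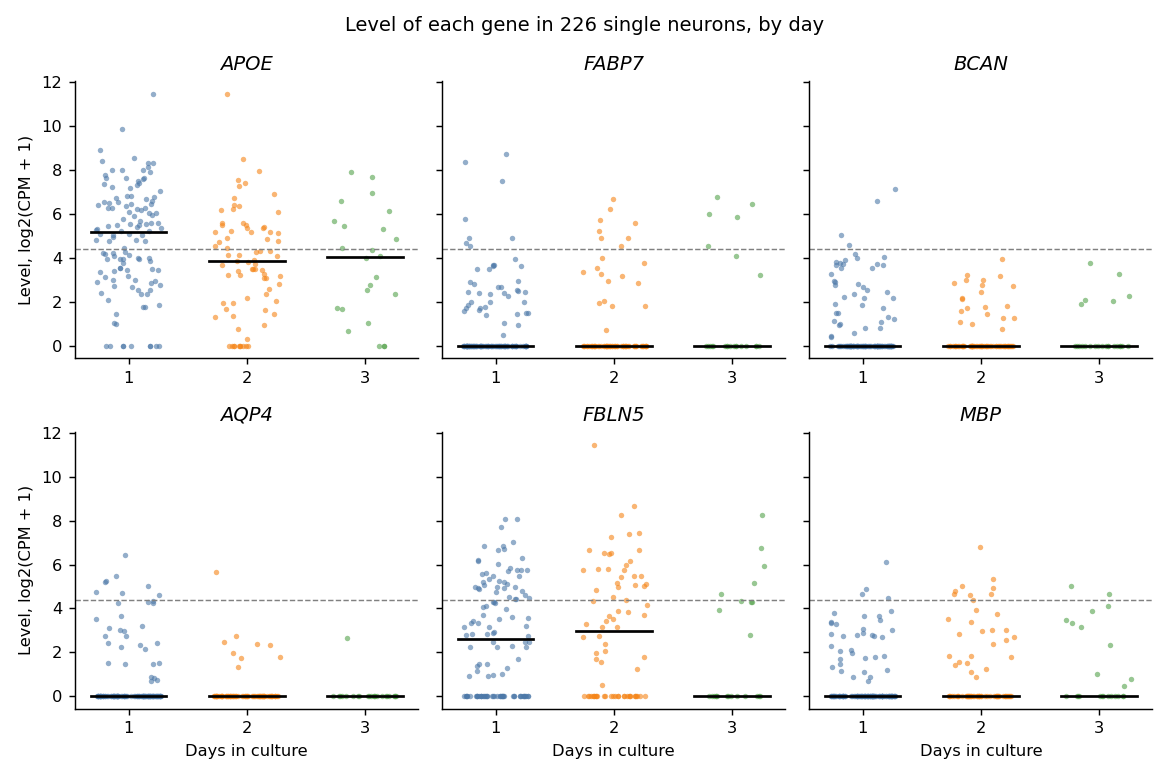
Level of each measured gene in the single neurons, as log2(CPM + 1), against days in culture. Each point is 1 cell, the bar is the median and the dashed line is 20 CPM. The medians of FABP7, BCAN, AQP4 and MBP are at 0 on every day, and most of their cells lie under the line.

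Cells with a rare member usually had APOE as well. FABP7, BCAN, AQP4 or MBP was at 20 CPM or more in 40 cells of 8 animals. Of these 40 cells 33 (82.5%) also had APOE, against 80 of the cells without any of the 4 genes (43.01%). Only 9 cells had more than 1 of the 4 genes. Over the 6 measured members, 84 cells had none, 72 had 1, 51 had 2, 15 had 3 and 4 had 4, and none had 5 or 6.

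Each pair was set against the number that the shares within each animal would give if the genes were spread independently, as a description with no test, since cells share animals and depth. APOE and FABP7 met in 18 cells, against 11.6 from the shares. APOE and MBP met in 12, against 7.64, and APOE and AQP4 in 8, against 5.35. All 4 cells with BCAN had APOE, against 2.51. APOE and FBLN5 met in 50 cells, against 40.02. These 5 pairs with APOE all lay above the number from the shares, by 1.25 to 1.59 times.

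Pairs without APOE were few and mixed. FABP7 and FBLN5 met in 9 cells, against 5.40, and FABP7 and MBP in 5, against 2.07. FBLN5 met MBP in 4 cells, against 4.32, and AQP4 in 3 cells, against 3.49. MBP met neither AQP4 nor BCAN in any cell, where the shares gave 0.585 and 0.304 cells. At numbers this small a count of 0 says little. At 5 CPM, AQP4 and MBP met in 3 cells, against 5.09, and every other pair lay above the number from the shares.

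**Figure D3:**
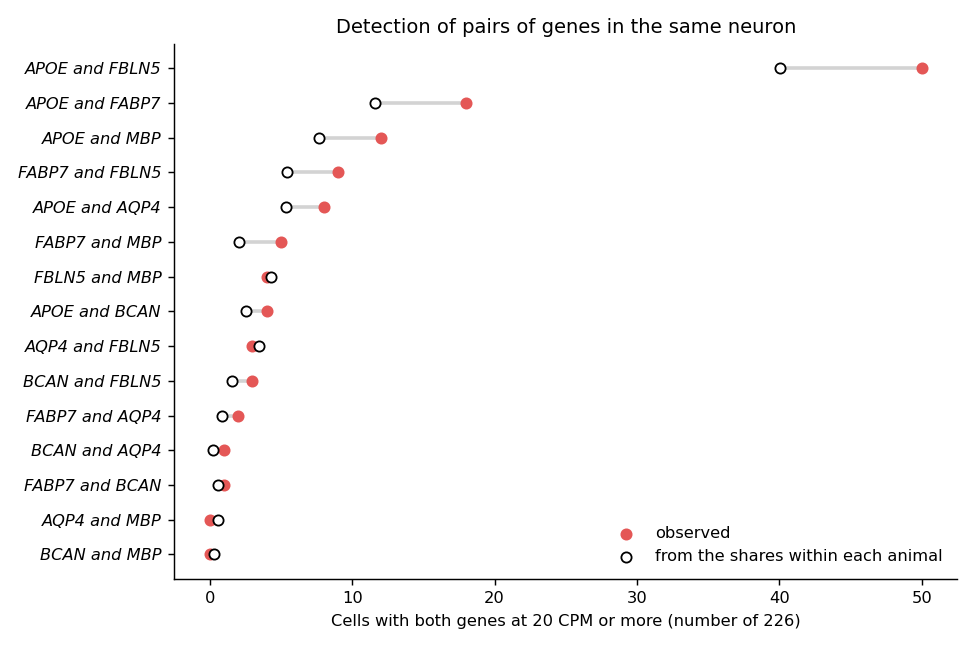
Number of neurons with both genes of a pair at 20 CPM or more (filled points) and the number from the shares within each animal (open points), for the 15 pairs of measured genes. The 5 pairs with APOE lie to the right of their open points, and the pairs of FBLN5 with AQP4 and with MBP lie just to the left.

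Most other satellite glia genes were found more often in cells with APOE. Of the 12 measured, 9 were at 20 CPM in a larger share of the cells with APOE than of those without it, 1 in a smaller share (KCNJ10, 0% against 0.885%), 1 in the same share (KCNJ3, 7.08%) and 1 in no cell. Of the 11 measured Schwann cell genes 7 were more frequent with APOE, 2 less frequent (NGFR and DRP2) and 2 in no cell. The genes given next were singled out after their values were seen. The satellite glia genes not among the members had a median sum of 294.2 CPM in the cells with APOE, against 73.9 CPM in the cells without it. SPARC, a secreted matrix protein of satellite glia, was at 20 CPM in 70.8% of cells with APOE, against 13.3% of cells without it. CDH19, a cadherin of the Schwann cell lineage, was in 54.9%, against 8.85%, and the glutamate transporter SLC1A3 in 23.01%, against 4.43%. Over all genes with a symbol the median share was 9.74% in cells with APOE, against 8.85% in cells without it. Of these genes 8248 were more frequent with APOE and 3233 less frequent, so most genes of any kind leaned the same way. Other genes of the list lay nearer to each other, such as GFAP in 9.73%, against 6.20%, and NDRG2 in 12.4%, against 7.96%. Cells with APOE had reads for a median of 14380 genes, against 12750 in cells without it, and a lower median total, 692436 against 811713.

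Macrophage markers were mostly more frequent with APOE too, 8 of 10 of them, with LYZ less frequent (24.8%, against 27.4%) and CSF1R in no cell. The macrophage protease CTSS was at 20 CPM in 44.3% of cells with APOE, against 15.9%, and the complement gene C1QB in 17.7%, against 3.54%. APOE is also made by macrophages. The 10 macrophage genes summed to 0 to 5667 CPM (median 87.03) in cells with APOE, against 0 to 3228 CPM (median 36.7) in cells without it. The 6 fibroblast genes had a median sum of 27.4 CPM, against 7.43 CPM, with 3 of them more frequent with APOE, 2 less frequent (DCN in 13.3%, against 16.8%, and PDGFRA in 7.96%, against 8.85%) and 1 equal. Of the cells with C1QB under 20 CPM, 46.04% still had APOE. The part of macrophage or fibroblast RNA in the APOE level was not tested. Of the 9 neuron genes 4 were more frequent with APOE, 2 less frequent, 2 equally frequent and 1 in no cell. The 2 less frequent ones were ELAVL3 (1.77%, against 7.96%) and RBFOX3 (0%, against 1.77%). STMN2 was in 100% of cells with and without APOE, and PRPH in 98.2%, against 95.6%.

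Some defining genes of glia stayed under 20 CPM in every cell. The highest level was 2.38 CPM for MAG and 9.59 CPM for PRX, proteins of myelinating Schwann cells, 4.48 CPM for the glial progenitor factor FOXD3 and 15.0 CPM for the satellite glia enzyme ENTPD2. The neuron factor POU4F1, at 17.3 CPM or less in these neurons, did the same, so a gene under the threshold is not shown to be absent. SOX10, the transcription factor shared by peripheral glia, was in 9 cells. PMP22, SCN7A and ERBB3, listed here as glial or Schwann cell genes, were in 92.5%, 89.8% and 97.4% of cells. They did not mark a subset: PMP22 was in 94.7% of cells with APOE, against 90.3% without it.

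Cells with FABP7 more often had 8 of the 12 other satellite glia genes, with KCNJ10, KCNJ3 and NDRG2 less frequent and 1 gene in no cell. Of the 11 Schwann cell genes 7 were more frequent, 2 less frequent (NGFR and DRP2) and 2 in no cell. Over all genes with a symbol, 6643 were more frequent with FABP7 and 5862 less frequent. Of the 21 cells, 76.2% had CDH19, against 27.3% of the other cells. SLC1A3 was in 52.4%, against 9.76%, and GFAP, the glial filament protein, in 28.6%, against 5.85%. Of the 10 macrophage genes 8 were more frequent with FABP7, 1 less frequent (CD68) and 1 in no cell. Among them C1QB was in 14.3% of cells with FABP7, against 10.2%. Of the 6 fibroblast genes 3 were more frequent and 3 less frequent, with COL1A2 in 38.1%, against 9.76%. TOP2A, a gene of dividing cells, was in 28.6%, against 4.88%. In the 9 cells with AQP4, 7 of the 12 satellite glia genes were more frequent, 4 less frequent and 1 in no cell. SPARC was in 8 of these cells, against 40.1% of the other cells. GFAP was in 0 of them, against 8.3%, and a 0 in 9 cells says little. Of the macrophage genes 8 of 10 were more frequent with AQP4, and of the endothelial genes 5 of 5. Over all genes with a symbol, 6026 were more frequent with AQP4 and 6479 less frequent. With MBP, 7 of the 11 Schwann cell genes were more frequent, 2 less frequent and 2 in no cell. Among them GLDN, gliomedin, which Schwann cells place at nodes, was in 53.3% of cells with MBP, against 28.4%.

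The levels of all genes present in at least 20 cells (7633 genes) were ranked by their Spearman correlation with a member over all cells, after centring on the animal. The cells share depth and plate, so these values describe likeness and carry no p. APOE was most like APOD (rho 0.65), an apolipoprotein of Schwann cells and fibroblasts, then SPARC (0.65), APOA1 (0.64), ZFP36L1 (0.62) and EDNRB (0.60), the endothelin receptor of glia. FABP7 was most like CDH19 (0.55), OLFML2A (0.54), MGST1 (0.54), APOA1 (0.51) and CYTL1 (0.49). The median gene had a rho of 0.07 with each. With APOE the satellite glia list had a median of 0.36 (6 genes), the fibroblast list 0.33 (3 genes), the macrophage list 0.25 (8 genes), the Schwann cell list 0.09 (6 genes), the list of genes shared by glia 0.44 (2 genes) and the neuron list -0.06 (6 genes).

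The closest genes of FBLN5 were SERGEF (0.48), POMGNT2 (0.46), NOP2 (0.46), ZBTB20 (0.45) and CLU (0.45), none of them in a glial list, and the median gene had a rho of 0.19 with it. The satellite glia list still had a median of 0.33 with FBLN5 (6 genes), the highest of the lists. FBLN5 was also related to the number of genes with a read (rho 0.43) and to the total count (0.29), where APOE had 0.27 and 0.01. In the current pig annotation the FBLN5 gene overlaps TRIP11, a Golgi protein gene that was at 20 CPM in 80.97% of cells. Smart-Seq2 does not mark the strand, so reads of the overlap cannot be told apart. The 2 levels had a rho of 0.10, which does not show where such reads were counted. The part of TRIP11 reads in the FBLN5 level was not tested.

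For the comparisons, counts were summed per animal and level and tested with edgeR, which called a gene at an adjusted p under 0.05 over all genes tested. All 6 measured members passed the filter on low counts in each of the 5 comparisons, and none was called in any.

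With time in culture, AQP4, APOE and BCAN were lower in most animals and no member passed the edgeR test. Between day 2 and day 1, 0 of 20267 genes were called (0%), while 754 (3.72%) had an unadjusted p under 0.05. Between day 3 and day 1, 1 gene was called (0.00493%) and 2571 (12.7%) had an unadjusted p under 0.05. The 3 animals with day 3 and the 9 animals with day 1 set these sums, and both comparisons share the day 1 cells.

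AQP4 was at 20 CPM in 6.45% of cells at day 1, 1.28% at day 2 and 0 of 24 cells at day 3, where a count of 0 allows up to 12.5%. Any read of it was in 26.6% of cells at day 1, 11.5% at day 2 and 4.17% at day 3, which was 1 cell of 24. Its summed level at day 2 was 0, 0, 2.22, 0, 0.987, 0.340, 0 and 1.14 CPM in animals 2, 4, 5, 6, 7, 8, 9 and 10. At day 1 it was 1.38, 4.25, 3.68, 0.493, 2.73, 2.75, 7.15, 5.36 and 3.54 CPM in animals 1, 2, 3, 4, 5, 6, 7, 9 and 10. All 7 animals with both days were lower at day 2, though the groups overlap, since animal 4 was low already at day 1. The day 1 levels rested on few cells in some animals. All 51 counts of animal 7 were of 1 cell, as were 21 of 27 in animal 5 and 27 of 35 in animal 6. Animal 9 had 3 cells at 20 CPM on that day. The level averaged 0.586 ± 0.809 CPM at day 2 (SD, n = 8 animals), against 3.48 ± 2.00 CPM at day 1 (SD, n = 9).

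The log2 change of AQP4 at day 2 was -3.45 (SE 0.88), with an edgeR adjusted p of 1.0 and an unadjusted p of 0.00165. At day 3 the 3 animals together had 1 count of AQP4, or 0.0359 CPM, against 3.22 CPM at day 1, a ratio of 0.0112 with a 95% counting interval of 0.00028 to 0.0634. On the scale of limma, with per-animal means of log2(CPM + 1), the change of AQP4 was -0.57 at day 2 and -0.64 at day 3. Over all alternatives it ran from -4.19 to -0.57 at day 2 and from -6.85 to -0.64 at day 3. The fitted log2 change at day 3 was -5.75 (SE 1.60), with an edgeR adjusted p of 0.234. DESeq2, run as an alternative, called AQP4 lower on both days, with adjusted p of 0.0141 at day 2 (0.0141 to 1.0 over its alternatives) and 0.0205 at day 3 (0.0205 to 0.792). It called 70 genes at day 2 (0.233%), 36 of them lower (0.12%), and 750 genes at day 3 (2.49%), 396 of them lower (1.32%). Cell numbers fell into 6 runs of 48, and within a single run AQP4 was lower at day 2 in 6 of 6 animals and at day 3 in 2 of 2.

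APOE was at 20 CPM in 58.1% of cells at day 1, 39.7% at day 2 and 41.7% at day 3. Its summed level at day 2 was 51.2, 21.3, 8.49, 6.05, 83.9, 52.1, 35.9 and 101.5 CPM in animals 2, 4, 5, 6, 7, 8, 9 and 10. At day 1 it was 27.4, 62.7, 34.6, 44.8, 154.5, 52.5, 70.2, 91.2 and 121.2 CPM in animals 1, 2, 3, 4, 5, 6, 7, 9 and 10. It was lower at day 2 in 6 of 7 animals, and animal 7, which holds the cell at 2854 CPM, was higher. The log2 change was -1.31 (SE 0.51), with an edgeR adjusted p of 1.0 and an unadjusted p of 0.0233.

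Without the 2 cells with the most APOE its log2 change at day 2 was -1.57 (SE 0.42). Without animal 5, which had the other such cell at day 1, it was -0.90. Within a single run APOE was lower at day 2 in 5 of 6 animals. At day 3 APOE stood at 79.1, 11.0 and 30.3 CPM in animals 2, 4 and 7, and its log2 change was -1.36 (SE 0.74; edgeR adjusted p = 0.451).

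BCAN was at 20 CPM in 3.23% of cells at day 1 and in 0 of 78 and 0 of 24 cells at days 2 and 3, which allow shares of up to 3.85% and 12.5%. Its summed level was lower at day 2 in 6 of 7 animals, with a log2 change of -1.58 (SE 0.97). That change was -2.53 without animal 4 and -0.76 under limma. FABP7 was in 6.45% of cells at day 1, 10.3% at day 2 and 20.8% at day 3. Of the 5 FABP7 cells at day 3, 3 were of animal 2 and 2 of animal 7. Its summed level was higher at day 2 in 4 of 7 animals, with a log2 change of 0.28 (SE 0.89). In animal 2 it was in 33.3% of cells at day 1 and 50% at days 2 and 3, and in animal 7 in 0%, 27.3% and 18.2%.

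FBLN5 was in 32.3%, 35.9% and 20.8% of cells at days 1, 2 and 3. Its log2 change at day 2 was 0.96 (SE 0.78) and 0.40 without animal 4. It was higher in 4 of 7 animals, and the animals ranged between 6.36 CPM in animal 2 and 159.1 CPM in animal 6 at day 2. MBP was in 3.23%, 11.5% and 8.33% of cells. Its summed level was higher at day 2 in 5 of 7 animals, with a log2 change of 0.90 (SE 0.68) that was 0.50 without animal 2, and any read of it was in 29.8%, 37.2% and 45.8% of cells. Each of these changes was within 2 of its standard errors.

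**Figure D4:**
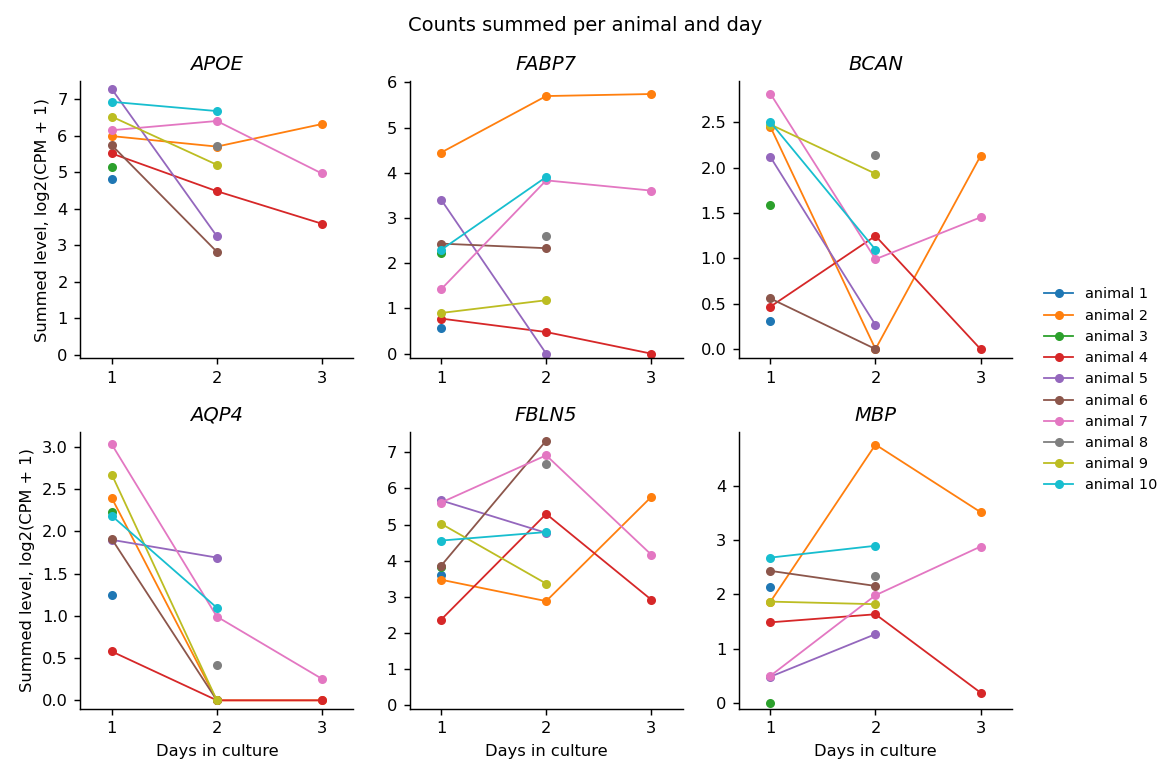
Level of each measured gene from counts summed per animal and day, as log2(CPM + 1), against days in culture. Each line is 1 animal, and animals 1, 3 and 8 have 1 point because only 1 day gave a sum of at least 3 cells. Between days 1 and 2 all 7 lines of AQP4 and 6 of 7 lines of APOE and of BCAN go down, while those of FABP7, FBLN5 and MBP are mixed.

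The wider glial lists did not pass the test over days either. Of the 10 tested satellite glia genes that are not members, 0 were called at day 2, and 9 of 10 had a negative log2 change, with a median of -0.41 against -0.05 over all genes. SLC1A3 had a log2 change of -0.86 (SE 0.50) and SPARC -0.73 (SE 0.57). The 9 Schwann cell genes had a median of -0.11 and the 10 macrophage genes one of 0.17, with 0 called in each. At day 3 the medians were -0.38, 0.0085 and 0.52, against -0.13 over all genes. Of the 10 satellite glia genes 4 were then positive and 6 negative, with SPARC at 1.28 (SE 0.76) and SLC1A3 at -1.405 (SE 0.72). The 4 tested genes shared by glia had a median of -0.27 at day 2 and 0.98 at day 3, when all 4 were positive. The 5 endothelial genes had a median of -1.43 at day 2 and 1.29 at day 3, and the 6 fibroblast genes -0.28 and -1.87. TOP2A, a gene of dividing cells, had log2 changes of 3.82 and 6.02, with edgeR adjusted p of 1 and 0.23. The macrophage sum per cell had a median of 61.8, 107.7 and 42.3 CPM at days 1, 2 and 3, and the neuron sum one of 14710, 14470 and 17210 CPM. The part of these levels, and of depth, in the day values of the members was not tested.

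Cell size was read from the recorded diameter (given without a unit for all but 5 cells, median 37.65) and from the membrane capacitance. No member passed the test between the larger and the smaller neurons of an animal. Split at each animal's median diameter, 0.71% of 17045 genes were called (0.639% higher and 0.0704% lower in larger cells), and 0 of the 6 members. DESeq2 called 470 genes higher and 244 lower in larger cells. FABP7 averaged 7.87 ± 11.2 CPM in larger cells, against 6.32 ± 9.75 CPM in smaller cells (SD, n = 10 animals each), higher in 6 of 10. Its log2 difference was 0.60 (SE 0.63; edgeR adjusted p = 0.755). APOE averaged 50.04 ± 30.1 CPM in larger cells, against 67.97 ± 40.6 CPM in smaller cells, with a log2 difference of -0.36 (SE 0.27; edgeR adjusted p = 0.627), and was higher in 5 animals and lower in 5.

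BCAN, AQP4, FBLN5 and MBP had log2 differences of 0.19, -0.12, 0.56 and 0.14, each within 1 of its standard errors. With capacitance in place of diameter the difference of AQP4 was 2.54 (SE 0.98; edgeR adjusted p = 0.272, against 0.272 to 0.999 over its alternatives). With diameter it ran from -0.58 to 0.33 with an animal left out, so the direction of AQP4 was not settled. PMP22, the only gene of the glial lists that was called, was higher in larger cells, with a log2 difference of 0.81 (SE 0.13; edgeR adjusted p = 0.014). It was also called between cells with and without OSMR, a neuron type gene taken up below, with a log2 difference of 0.76. Over only the cells with OSMR under 20 CPM, a smaller set, no gene was called for size. The part of neuron type in the size values was not tested.

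Cell by cell, and centred on the animal, FABP7 had a Spearman rho of 0.19 with diameter, positive in each of the 10 animals, between 0.02 and 0.68. As a slope of log2(CPM + 1) on diameter it was positive in 9 of 10 animals and -0.0128 in animal 5. The rho of FABP7 with diameter was 0.25 over the cells with OSMR under 20 CPM. Its rho with the number of genes with a read was 0.23, so size and detected genes were related to it about equally. The 19 FABP7 cells with a diameter had a median of 39.6, against 37 for the other cells. The rho with diameter was -0.04 for APOE, 0.05 for FBLN5, 0.04 for BCAN, 0.10 for AQP4 and -0.08 for MBP. The 72 FBLN5 cells with a diameter had a median of 36.3, against 38.4 for the cells without it, and were the smaller ones in 6 of 10 animals.

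**Figure D5:**
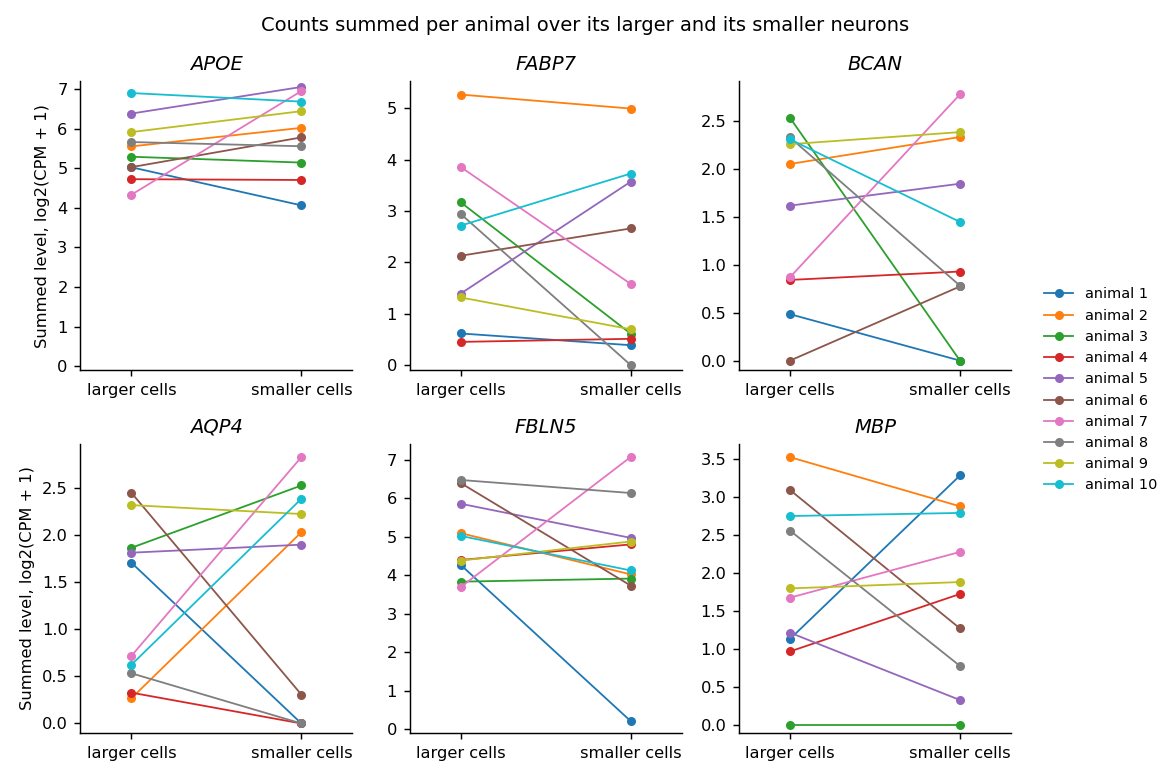
Level of each measured gene from counts summed per animal over its larger neurons (left) and its smaller neurons (right), as log2(CPM + 1). Each line is 1 animal, and cells were split at the animal's median diameter. Lines cross in every gene, and APOE is higher in the larger cells of 5 of 10 animals.

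OSMR, the oncostatin M receptor, marks a type of itch and pain neuron and was at 20 CPM or more in 90 cells. Between the OSMR-carrying and the other cells of an animal 289 of 18550 genes were called (1.56%, with 1.07% higher and 0.491% lower in OSMR-carrying cells) and 0 of the 6 members. DESeq2 called 545 genes higher and 462 lower, and limma on the animals' means of log2(CPM + 1) called 627 higher and 59 lower. FBLN5 averaged 18.6 ± 11.0 CPM in OSMR-carrying cells (n = 8 animals), against 43.7 ± 36.4 CPM in the other cells (n = 10), lower in 6 of 8 animals with both. Its log2 difference was -0.92 (SE 0.50; edgeR adjusted p = 0.506). MBP averaged 3.06 ± 2.63 CPM, against 4.31 ± 3.72 CPM, and was lower in 6 of 8 animals, with a log2 difference of -0.72 (SE 0.37; edgeR adjusted p = 0.464).

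AQP4 was in 6 of 90 OSMR-carrying cells (6.67%, 95% Wilson interval 3.09% to 13.8%), against 3 other cells (2.21%, 0.753% to 6.29%). Its log2 difference was 1.23 (SE 0.94; edgeR adjusted p = 0.69), higher in 6 of 8 animals. APOE was in 56.7% of OSMR-carrying cells, against 45.6% of the other cells, while its summed level had a log2 difference of -0.27 (SE 0.43). That difference was 0.04 without animal 7. Of the lists, PMP22 (log2 difference 0.76, SE 0.17; edgeR adjusted p = 0.0368) and DCN, of the fibroblast list (4.67, SE 0.53; edgeR adjusted p = 0.000433), were higher in OSMR-carrying cells. The other tested fibroblast genes were not called, with LUM at 0.95, COL3A1 at 0.42, COL1A2 at -0.26 and PDGFRA at -1.03. RBFOX3 was lower (-2.52, SE 0.56; edgeR adjusted p = 0.0389), though it was at 20 CPM in only 2 cells. Of the 8 tested neuron genes 5 had a positive and 3 a negative log2 difference.

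Age was read as a slope per week over the 9 animals with at least 3 cells at day 1. Of 19694 genes 0 were called (0%), and 1223 (6.21%) had an unadjusted p under 0.05. FBLN5 had a log2 slope of 0.26 per week (SE 0.10; edgeR adjusted p = 0.747) and APOE one of 0.18 (SE 0.08; edgeR adjusted p = 0.767), positive with each of the 9 animals left out in turn. APOE stood at 28.9 and 65.2 CPM in the animals of 11 weeks, 35.1 CPM at 12 weeks, 45.1 CPM at 14 weeks, 169.4 and 54.3 CPM at 15 weeks, 94.5 CPM at 17 weeks, and 68.8 and 120.7 CPM at 18 weeks. The 4 youngest animals lay at 65.2 CPM or lower, and so did 1 of the 5 older ones. FABP7 had a slope of -0.27 (SE 0.17), which rested on animal 2 of 11 weeks and was 0.06 without it. The 9 tested macrophage genes all had positive slopes, with a median of 0.52 against -0.00478 over all genes and 0 called, while the 10 satellite glia genes had a median of -0.01. Older animals lay in later runs of cell numbers, and age and run cannot be told apart.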

How the data were processed

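The deposited gene table holds estimated counts made by the authors, which are not scaled to library size: 52.1% of the values above 0 were not whole. The submitters' processing notes list bcl2fastq 2.20. For the aligner, the counter, the genome build and the gene models, the sources used here give no name. Per the labels' protocols each cell was taken up with 2 pipettes into 1 tube for Smart-Seq2. The deposited cell table holds other values per cell (animal, age, day, diameter and capacitance), with no units. Its age and day differed from the sample titles in 0 cells, and 43 of its 269 lines belong to no sample used here. A symbol was found for 14867 of 30420 identifiers, with none for S100B, GLUL, MAL, VWF and MKI67.

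Levels use log2(CPM + 1). The share and pair values have no test. Counts were summed over the cells of an animal and level (at least 3 cells) and rounded, and tested with edgeR 4.0.16 under R 4.3.3 (TMM, filterByExpr, quasi-likelihood test, Benjamini-Hochberg adjustment over all genes tested). The animal was a block, except for the age slope. Animals with sums on both sides give the pairing: 7 of 10 at day 2, 3 at day 3, 10 for size and 8 for OSMR. The CPM of sums is TMM-scaled, and that of runs and counting ratios is not. Alternatives used DESeq2 1.42.0, limma 3.58.1, other filters, sizes and cell sets, and each animal left out in turn. The test was also run on simulated counts, which had no differences between animals. The changed genes in them lay above the levels of AQP4 and BCAN, so that run does not cover these 2 members. No doublet caller was run, since cells were picked one at a time. Depth ran from 109726 to 5506278 counts per cell, and reads without molecular identifiers are not independent molecules, so intervals cover counting error only. Nothing says which cells came from separate cultures of an animal.

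All measured members are named. Other genes are named as the 5 most like a member present in at least 20 cells, as genes of a marker list that passed a test, or as the most often detected of a list. Further list genes, and cells with very high levels, were singled out after their values were seen. The members and lists were chosen with earlier results of these data known. FBLN5 and TRIP11 overlap in RefSeq's annotation of Sscrofa11.1, whose coordinates are not used. Some genes of the marker lists are not reported here.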

Additional observations from a re-analysis of the deposited data

Results flagged for a closer look

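Single animals far from the rest were looked for in 23 groups of 9 or 10 animals, each holding 1 gene on 1 day and either its share of cells or its mean log2(CPM + 1). Of these 3 were picked out. Many of the shares are 0 or rest on few cells, so this number is not set against a chance rate. FABP7 was at 20 CPM or more in 33.3% of the cells of animal 2 at day 1, where the next of the 10 animals had 8.0%. AQP4 was in 8.33% of the cells of animal 5 at day 2, which is 1 of 12 cells, while the other 8 animals had 0. FBLN5 was in 100% of the cells of animal 8 at day 2, with the next of the 9 animals at 50%. Animal 8 gave 4 cells on that day.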

How the results depend on the processing

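Of 539 values of members under alternatives, 494 kept their direction and side of the threshold, 43 changed sign and 2 passed the threshold, both AQP4 under DESeq2 (log2 changes of -3.95 at day 2 and -5.63 at day 3). No sign change belonged to a called value. The number of genes called moved by over 1.5 times as follows, given as a percent of the genes tested (0 at day 2, 0.00493% or 1 gene at day 3, 0.71% for size, 1.56% for OSMR and 0 for age in the values reported above). DESeq2 called 0.233% (day 2), 2.49% (day 3), 2.38% (size), 3.35% (OSMR) and 0.217% (age). Without a filter on low counts it was 0.00998% (day 3), 0.715% of 30054 genes (size) and 1.75% (OSMR). Without the animal as a replicate block it was 0.197% (day 3) and 0 (size), with 0 at day 2 and 246 genes for OSMR. Sums of at least 5 cells gave 0.00978% (day 3). Chosen after seeing the data were the removal of cells with C1QB, with 0 (day 3) and 0.258% (size), that of the 2 APOE-rich cells, with 0 (day 3), and limma on means of log2(CPM + 1), with 0 (day 3) and 3.7% (OSMR), where the median over all genes moved to 0.21 for OSMR, -0.13 for day 2 and -0.39 for day 3. Capacitance gave 1.13% and only cells with OSMR under 20 CPM gave 0 for size, and limma on slopes gave 0.434%. Leaving out an animal gave 0 to 0.00499% at day 3 (0 without animal 4, 5, 7, 9 or 10), 0.146% to 1.1% for size (0.146% without animal 7, 1.1% without animal 1, and moved also without animals 4, 5, 6, 8, 9 and 10) and 0.825% to 2.13% for OSMR (0.825% without animal 7 and 0.896% without animal 4). The cause of these moves was not tested.

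Sign changes, as log2 values, were these. FBLN5 was -0.10 (sums of at least 5 cells), -1.90 (OSMR under 20 CPM) and -0.39 (limma) at day 3 and -0.14 (limma) at day 2. FABP7 without C1QB cells was -0.03889 at day 2 and -0.08517 at day 3. For size, AQP4 was 0.16 (DESeq2), 0.02362 (no C1QB cells), 0.39 (without the 2 APOE-rich cells), 2.54 (capacitance), 0.13 (limma means) and 0.02497 (slopes). BCAN was -0.20 (no C1QB cells) and -0.06186 (OSMR under 20 CPM). MBP was -0.19 (no C1QB cells), -0.40 (capacitance), -0.06296 (limma means) and -0.0132 (slopes). With capacitance APOE was 0.11 and FBLN5 -0.36, and with OSMR under 20 CPM FABP7 was -0.01818. For OSMR under limma APOE was 0.0013 and FABP7 0.03517. With an animal left out, FABP7 ran over -0.14 to 0.84 (day 2), -0.60 to 1.11 (day 3) and -0.36 to 0.06305 (age), FBLN5 over -1.24 to 1.48 (day 3), MBP over -1.004 to 1.83 (day 3), -0.15 to 0.48 (size) and -0.09388 to 0.13 (age), AQP4 over -0.58 to 0.33 (size), BCAN over -0.26 to 0.57 (size), and APOE over -0.62 to 0.04275 (OSMR). Of 47 share and pair values at other thresholds or depth, 35 moved past their counting interval. Depth limits the rare members most, since 20 CPM was 2.2 counts in the shallowest cell.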
